A study of Mus musculus with 4 samples.

Results

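The genes described here form the NRF2, glutathione and antioxidant system of elicited peritoneal macrophages, compared between 2 inbred mouse strains. A list of 40 genes was used, and a member was taken as measured where a probe set of the array carried its symbol and no other. By this rule 34 of the 40 genes were measured, among 22180 genes tested in all. Prdx1, Gstm5 and Tkt had only probe sets that carried several symbols, no symbol was found for Prdx5, Prdx6 and G6pdx, and these 6 genes are not analysed here. Each of the 34 genes was represented by 1 probe set, the brightest on average, and 2 of them (Slc7a11 and Keap1) had a second.

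The macrophages came from wild type 129S6/SvEvTac (129) and DBA/2J (DBA) mice, 3 months old and fed regular chow, that received 1 ml thioglycollate medium in the peritoneal cavity. Thioglycollate is a sterile irritant that draws monocytes into the cavity, where they mature into macrophages. Cells were collected after 4 days, cultured overnight in DMEM with serum, and their RNA was pooled by strain and sex, which gave 1 female and 1 male pool per strain and 4 pools in all. According to the labels a pool held RNA of 3 mice, whereas the paper's methods give a larger number. Each pool was hybridised to its own Affymetrix Mouse Gene array, and all levels below are log2 expression values of these pools, named by strain and sex, with differences given as DBA minus 129. A level of 7.17 served as the background reference, under which the means of 95% of 1394 receptor genes for odours and pheromones fell.

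NRF2, encoded by Nfe2l2, is a transcription factor that the adaptor protein KEAP1 normally hands over for degradation. Oxidants and electrophiles modify KEAP1, and NRF2 then accumulates and binds antioxidant response elements in genes that make and recycle glutathione, conjugate and export reactive compounds, and supply the NADPH that these reactions consume. Macrophages produce superoxide and other oxidants when they are activated, and rely on the same enzymes to limit damage to themselves.

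Of the 34 measured genes, 1 passed the test as higher in DBA macrophages, none as lower, and 33 were not called (limma, adjusted p under 0.05 over all genes tested). Over all genes, 0.216% were called higher and 0.158% lower in DBA by the same rule. The gene that passed was Gsta3, a glutathione transferase of the alpha class. It shared the upper end of the list with Gstp1, a transferase of the pi class, Nqo1, which encodes a quinone reductase, Slc7a11, the cystine transporter, and Me1, the cytosolic malic enzyme. Ratios of the mean linear levels of these other 4 ran from 1.81 in Me1 to 2.71 in Gstp1, and none of them passed the adjusted threshold. In RNA pooled from many cells, more cells of a type and more RNA per cell cannot be told apart.

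Without adjustment, 9 of the 34 genes (26.5%) had a p under 0.05 with the higher level in DBA and none with the lower, where 6.44% and 5.08% of all genes did so (limma). They were Gsta3, Gstp1, Me1, Nqo1, Cat, Slc7a11, Abcc1, Sod2 and Taldo1. This count of 9 was 14 without the 129 female pool and 5 without the 129 male pool. In 15 genes (44.1%) both DBA pools lay above both 129 pools, against 23.0% of all genes, and in 3 genes (Txn1, Sod1 and Gstt2) both lay below, against 21.4% of all genes. The pools of the strains overlapped in the remaining 16 genes. The smallest p of an exact permutation test in this design is 0.333. Female and male pools of a strain stand as its replicates, so the spread between them includes any effect of sex.

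**Figure D1:**
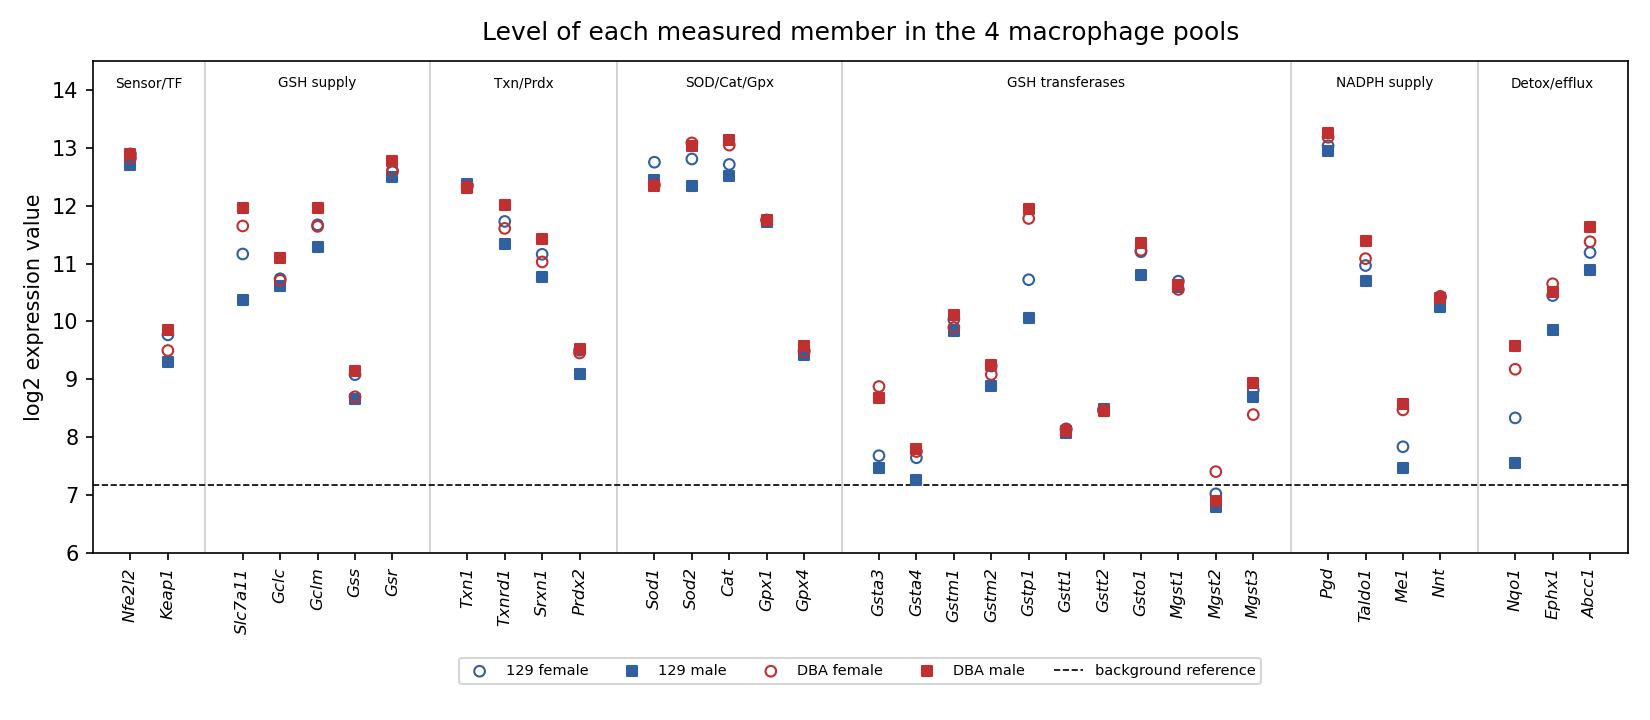
Log2 expression value (vertical axis) of the 34 measured genes in each of the 4 pools, grouped by role, with open circles for female and filled squares for male pools, blue for 129 and red for DBA, and a dashed line at the background reference of 7.17. Gsta3, Gstp1, Nqo1, Slc7a11 and Me1 show the widest separation of red from blue, while Gpx1, Gstt1 and Gstt2 show the 4 pools nearly on top of each other.

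**Figure D2:**
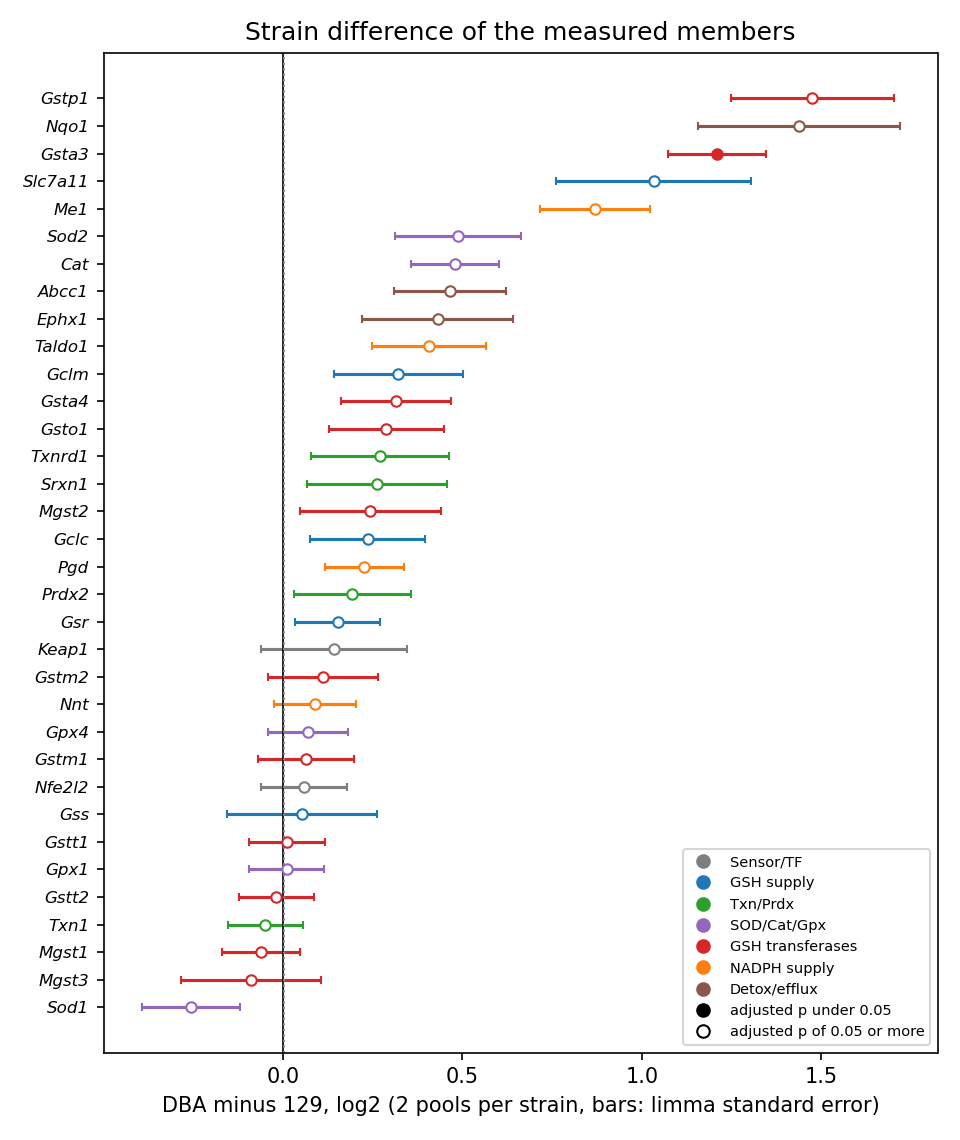
Mean of the DBA pools minus mean of the 129 pools in log2 units, with 2 pools per strain (horizontal axis) for the 34 measured genes, sorted by size, with bars for the limma standard error and a filled point where the adjusted p was under 0.05. Only Gsta3 is filled, and the differences run from -0.26 in Sod1 to 1.47 in Gstp1.

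Neither the factor itself nor its sensor passed the test. Nfe2l2 read 12.90 in 129 females and 12.71 in 129 males, against 12.83 in DBA females and 12.90 in DBA males. The pools overlapped, and the difference between the strains was 0.06 (standard error 0.12, adjusted p = 0.873, limma). Keap1 read 9.77 in 129 females and 9.29 in 129 males, against 9.50 in DBA females and 9.85 in DBA males. The 129 female pool thus lay above the DBA female pool while the 129 male pool lay below the DBA male pool, and the strain difference was 0.14 (standard error 0.20, adjusted p = 0.814). A second probe set of Keap1 differed by -0.05.

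Glutathione is a tripeptide, and the uptake of cystine limits how much of it a cell can make. Slc7a11, the light chain of the cystine and glutamate exchanger, read 11.17 in 129 females and 10.38 in 129 males, against 11.65 in DBA females and 11.96 in DBA males. Both DBA pools lay above both 129 pools, and the 129 male pool was the lowest. The mean difference was 1.03 (standard error 0.27, adjusted p = 0.275, limma), with a ratio of 1.98 between the mean linear levels. The ratio was 1.40 between the female pools and 2.99 between the male pools. A dimmer second probe set of Slc7a11 gave a difference of 1.46, with 6.84 in 129 females and 5.62 in 129 males, against 7.17 in DBA females and 8.22 in DBA males, so that the pools had the same order. In 3 of the 4 pools this second probe set was not above the background reference.

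Glutamate cysteine ligase catalyses the first step of glutathione synthesis and consists of a catalytic and a modifier subunit. Its modifier subunit Gclm read 11.67 in 129 females and 11.30 in 129 males, against 11.64 in DBA females and 11.97 in DBA males. Its catalytic subunit Gclc read 10.74 in 129 females and 10.61 in 129 males, against 10.71 in DBA females and 11.10 in DBA males. In both subunits the female pools of the strains were nearly level and the DBA male pool was the highest of the 4. Their differences were 0.32 (standard error 0.18) for Gclm and 0.24 (standard error 0.16) for Gclc, with adjusted p = 0.541 and adjusted p = 0.605. Gsr, the reductase that returns oxidised glutathione to its reduced form, differed by 0.15 (standard error 0.12), with both DBA pools above both 129 pools by a narrow margin (12.59 in the 129 female against 12.61 in the DBA female pool). Gss, which adds the last amino acid of glutathione, read 9.08 in 129 females and 8.65 in 129 males, against 8.70 in DBA females and 9.14 in DBA males, and its difference of 0.05 (standard error 0.21) turned negative with quantile normalization (-0.045). In all 5 supply genes the 129 male pool was the lowest and the DBA male pool the highest.

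Glutathione transferases join glutathione to reactive compounds, and 11 of 12 listed genes were measured, of which 1 was called higher, 0 lower and 10 not called. Gsta3 (probe set 17211405, chromosome 1) read 7.68 in 129 females and 7.46 in 129 males, against 8.87 in DBA females and 8.68 in DBA males. The gap between the strains was several times that between the sexes, and the pools did not overlap. The difference was 1.21 (standard error 0.14, adjusted p = 0.0416, limma), and the ratio was 2.29 between the female and 2.33 between the male pools. The 129 pools lay close to the background reference of 7.17. The call was lost without the 129 female pool (adjusted p = 0.124), the 129 male pool (0.259) or the DBA female pool (0.0599), with sex as a block (0.067) and with all probe sets tested together (0.295), and its adjusted p ran from 0.025 to 0.295 over all settings tried.

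The 250 bases in front of the start of Gsta3 are printed because it is the gene that passed the test and because its upstream region holds a match to the core of the antioxidant response element, TGACNNNGC, where N is any base. The sequence lies at chr1:21240335-21240584 on the forward strand of GRCm38.p6 (RefSeq), reads 5′ to 3′, and has the match in capitals.
Gsta3: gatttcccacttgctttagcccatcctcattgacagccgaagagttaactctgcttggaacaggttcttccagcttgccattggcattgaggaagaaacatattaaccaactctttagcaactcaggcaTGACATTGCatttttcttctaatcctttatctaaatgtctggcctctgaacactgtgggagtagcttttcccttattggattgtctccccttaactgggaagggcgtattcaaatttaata

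Gstp1, the pi class transferase that is abundant in many cell types, had the highest mean difference of the transferases. It read 10.72 in 129 females and 10.06 in 129 males, against 11.78 in DBA females and 11.95 in DBA males. The DBA pools lay more than 1 log2 unit above either 129 pool, and the 129 pools differed from each other by 0.66. The difference was 1.47 (standard error 0.23), with a ratio of 2.71 between mean linear levels, and it did not pass the test (adjusted p = 0.101, and 0.0553 to 0.428 over the other settings, limma). The ratio was 2.08 between the female and 3.70 between the male pools. Gstp1 has a near-identical neighbour, Gstp2, and probes of the array may read both.

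Both DBA pools also lay above both 129 pools in Gsta4, which conjugates lipid aldehydes such as hydroxynonenal, and in Gsto1, an omega class transferase. Gsta4 differed by 0.31 (standard error 0.15) and Gsto1 by 0.29 (standard error 0.16). The mu class gave smaller differences, with 0.06 (standard error 0.13) for Gstm1 and 0.11 (standard error 0.15) for Gstm2, genes of a family of close relatives. The theta class gave the least, with 0.01 (standard error 0.11) for Gstt1 and -0.02 (standard error 0.10) for Gstt2. Quantile normalization turned the sign of Gstm1 (-0.049) and Gstt1 (-0.003), and a common median that of Gstt2 (0.013). Gstt1 spanned 8.07 to 8.14 and Gstt2 8.45 to 8.48 over the 4 pools. Of the microsomal transferases, which sit in membranes, Mgst1 differed by -0.06 (standard error 0.11) and Mgst3 by -0.09 (standard error 0.20). Mgst2 was below the background reference in 3 of the 4 pools, with only the DBA female pool above it at 7.40.

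Enzymes that handle quinones and epoxides, and the pump that exports conjugates, were measured in 3 of 3 genes. Each had both DBA pools above both 129 pools, as did 23.0% of all genes. The share was 25.4% for genes between the background reference and 10, where Nqo1 lay, and 37.7% for those with a mean of at least 10. Nqo1, which reduces quinones by transferring 2 electrons and is a standard indicator gene of NRF2 activity, read 8.33 in 129 females and 7.55 in 129 males, against 9.17 in DBA females and 9.58 in DBA males. The order of the pools was that of Slc7a11, with the 129 male pool lowest and the DBA male pool highest. The mean difference was 1.44 (standard error 0.28, adjusted p = 0.181, limma), with a ratio of 1.79 between the female and 4.09 between the male pools. Abcc1, a transporter that exports glutathione conjugates and oxidised glutathione, read 11.19 in 129 females and 10.89 in 129 males, against 11.38 in DBA females and 11.63 in DBA males, a difference of 0.47 (standard error 0.16, adjusted p = 0.354). Ephx1, the microsomal epoxide hydrolase, read 10.45 in 129 females and 9.85 in 129 males, against 10.65 in DBA females and 10.50 in DBA males. The 129 male pool was well below the others, and the strains differed by 0.20 in females and by 0.66 in males.

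NADPH is the electron donor for glutathione reductase and thioredoxin reductase. The 4 measured genes of its supply all had both DBA pools above both 129 pools, though Nnt only by a margin close to 0. Of all genes 23.0% were separated in this way. The share was 25.4% for genes between the background reference and 10, where Me1 lay, and 37.7% for those with a mean of at least 10. Me1, which makes NADPH from malate in the cytosol, read 7.83 in 129 females and 7.46 in 129 males, against 8.47 in DBA females and 8.56 in DBA males. The strains were separated in both sexes, and the ratio of mean linear levels was 1.81. The difference was 0.87 (standard error 0.15, adjusted p = 0.138, limma). Taldo1, the transaldolase of the non-oxidative pentose phosphate pathway, differed by 0.41 (standard error 0.16) and Pgd, the second NADPH-producing enzyme of the oxidative branch, by 0.23 (standard error 0.11). Nnt, which makes NADPH in the mitochondrial inner membrane, differed by 0.09 (standard error 0.11), with 10.41 in the 129 female, 10.44 in the DBA female and 10.41 in the DBA male pool. The highest 129 pool and the lowest DBA pool were thus almost equal, and the sign turned with quantile normalization (-0.019).

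Thioredoxin and peroxiredoxin reactions run beside glutathione and reduce protein disulfides and peroxides. Txnrd1, the cytosolic thioredoxin reductase, read 11.73 in 129 females and 11.35 in 129 males, against 11.61 in DBA females and 12.01 in DBA males. Srxn1, the sulfiredoxin that repairs overoxidised peroxiredoxins, read 11.16 in 129 females and 10.76 in 129 males, against 11.03 in DBA females and 11.42 in DBA males. These 2 genes followed the same order, with the 129 female pool above the DBA female pool, and the male pools 0.66 apart in the opposite direction. Their mean differences were 0.27 (standard error 0.19) and 0.26 (standard error 0.20). Prdx2, a cytosolic peroxiredoxin, differed by 0.19 (standard error 0.16) and Txn1, thioredoxin itself, by -0.05 (standard error 0.10). None of the 4 passed the test, with adjusted p from 0.623 for Txnrd1 to 0.880 for Txn1.

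Enzymes that remove superoxide and hydrogen peroxide differed among themselves. Cat, which encodes the peroxisomal catalase, read 12.72 in 129 females and 12.51 in 129 males, against 13.05 in DBA females and 13.13 in DBA males. Sod2, the manganese superoxide dismutase of mitochondria, read 12.81 in 129 females and 12.34 in 129 males, against 13.09 in DBA females and 13.03 in DBA males. Both DBA pools lay above both 129 pools in these 2 genes, with differences of 0.48 (standard error 0.12, adjusted p = 0.267) for Cat and 0.49 (standard error 0.18, adjusted p = 0.383) for Sod2 (limma). Sod1, the copper and zinc dismutase of the cytosol, lay the other way, with 12.75 in 129 females and 12.45 in 129 males, against 12.36 in DBA females and 12.34 in DBA males. Its difference of -0.26 (standard error 0.14, adjusted p = 0.526) was the most negative of the 34 genes, and the 129 female pool stood above the other 3. Gpx1 and Gpx4, which reduce peroxides in the cytosol and in membrane lipids, differed by 0.01 (standard error 0.10) and 0.07 (standard error 0.11), with signs that turned under quantile normalization (-0.077 and -0.041). The 4 pools of Gpx1 lay between 11.73 and 11.76.

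The strain difference of the group was unequal between the sexes. The median difference of the 34 genes was -0.010 between the female pools and 0.493 between the male pools, where the medians of all genes were -0.027 and 0.045. The male difference was the greater in 31 of 34 genes (91.2%), against 60.5% of all genes, and in 15 genes (44.1%, against 45.9% of all genes) the female and male differences had opposite signs. Gsta3 had nearly the same difference in both sexes, with ratios of 2.29 and 2.33. With 1 pool per strain and sex, the difference between the sexes could not be tested, and individual pools cannot be told apart from sex. In a limma fit of sex with strain in the model no member passed (0.018% of all genes did), and none had an unadjusted p under 0.05. At that unadjusted level 116 of the 22180 genes were higher in males and 267 in females. This fit averages the male minus female difference over the strains, so opposite differences cancel, as in Nqo1 (-0.78 in 129, 0.41 in DBA, -0.18 in the fit). It therefore cannot decide whether the strain difference was unequal between the sexes.

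**Figure D3:**
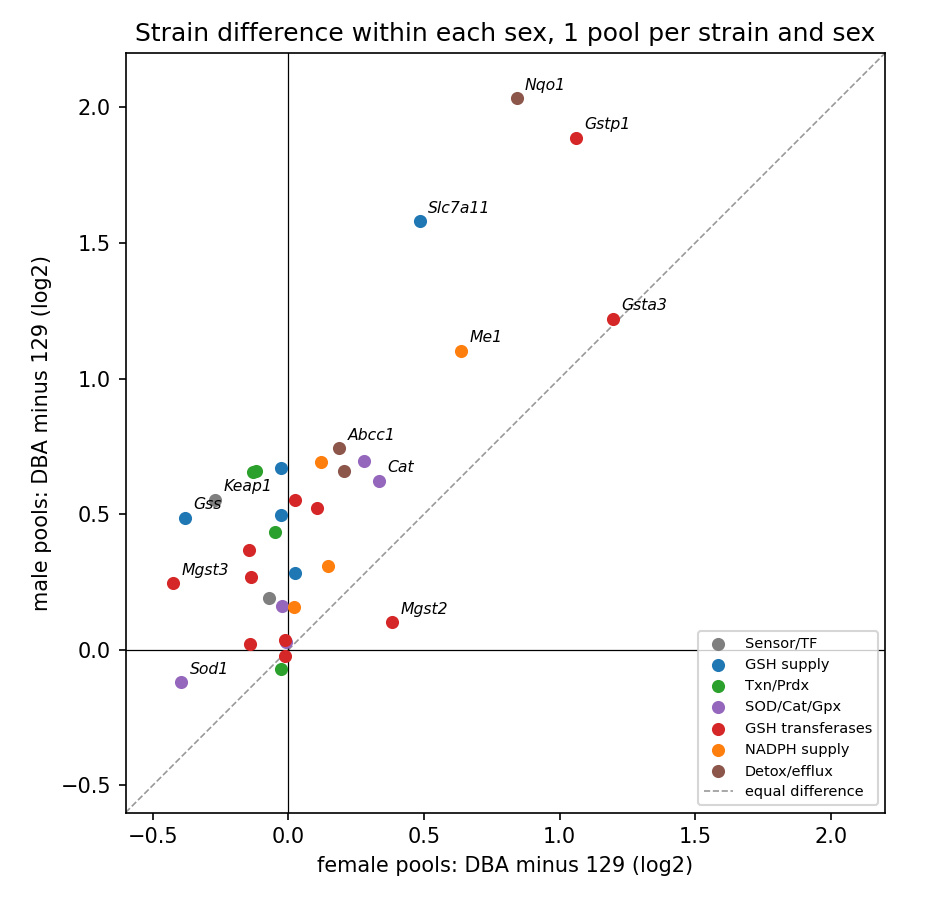
Log2 difference between DBA and 129 in the female pools (horizontal axis) and in the male pools (vertical axis) for the 34 measured genes, coloured by role, with a dashed line where both are equal. Of the 34 points 31 lie above the dashed line, Gsta3 lies close to it, and Nqo1, Gstp1 and Slc7a11 lie far above it.

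The 129 male pool stood apart from the others. It was the lowest of the 4 in 29 of 34 genes (85.3%), against 36.0% of all genes, and the DBA male pool was the highest in 22 (64.7%), against 34.6%. The median difference of the male from the female pool was -0.283 in 129 and 0.099 in DBA. Among all genes with a mean of at least 10 it was -0.113 and 0.081. Among those between the background reference and 10 it was -0.068 and 0.058. The differences between arrays also changed with the level of the genes. Among all genes the 129 male pool lay 0.138 below the 129 female pool at the median for mean levels between 9 and 10, and level with it (0.00) for mean levels between 2 and 5, whereas the DBA male pool lay 0.110 above the DBA female pool for levels between 9 and 10. Among the 4572 genes with a mean of at least 10, the 129 male pool was the lowest in 58.5% and the male strain difference the greater in 76.3%. A count of the members is therefore better read against genes of their own level. Of the 34 members 20 had a mean of at least 10, and in 17 of these (85.0%) the 129 male pool was the lowest. The DBA male pool was the highest in 12 of these 20 (60.0%), against 51.7% of all genes at that level. Among the 14 dimmer members it was the highest in 10 (71.4%), against 39.4% of genes between the background reference and 10. Both DBA pools lay above both 129 pools in 11 of the 20 (55.0%), against 37.7% of all genes at that level. Of the 14 dimmer members 4 (28.6%) were separated in this way, against 25.4% of genes between the background reference and 10, a share near the background.

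The median strain difference of the 34 genes was 0.231, against 0.004 for all genes, 0.049 for the 13376 genes at or above the background reference and 0.092 for those with a mean of at least 10. For the 20 members with a mean of at least 10 it was 0.266, and for the 14 below that level it was 0.127, against 0.020 for genes between the reference and 10. It was 0.150 with quantile normalization and 0.149 with cyclic loess, which removes a level-dependent difference between arrays, and under these scalings the median of the genes at 10 or more was 0.004 and -0.001. The number of members with a positive difference was 29 and became 23 under these 2 scalings. Before these scalings 11305 of all 22180 genes had a positive difference. Among members with a mean of at least 10 the number was 17 of 20, against 3285 of the 4572 genes at that level. Among the dimmer members it was 12 of 14, against 4744 of 8804 genes between the background reference and 10. Without the 129 male pool the median was 0.085, without the DBA male pool 0.085, without the 129 female pool 0.370 and without the DBA female pool 0.295.

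**Figure D4:**
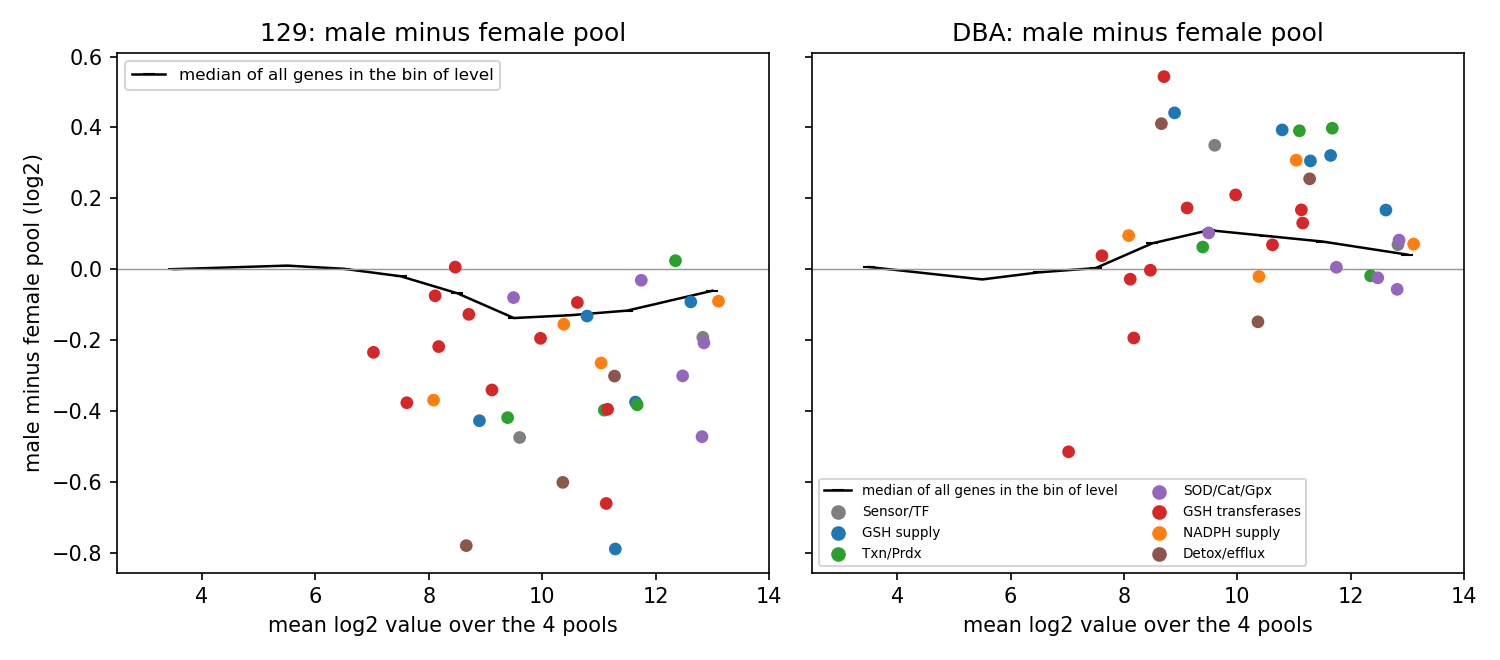
Male minus female pool in log2 units (vertical axis) against the mean log2 value over the 4 pools (horizontal axis), for 129 on the left and DBA on the right, with a point per measured gene coloured by role and a black line for the median of all genes in each bin of level. In 129 most points lie below the line as well as below 0, with a median of -0.283. In DBA most lie above 0, with a median of 0.099, near the 0.081 of all genes with a mean of at least 10.

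Other genes of the same pathways were described from lists that held none of the 40 members. Of 88 such genes 79 were measured, and none passed the adjusted test in either direction, while 11 had an unadjusted p under 0.05 with the higher level in DBA and 3 with the lower (limma). These were 13.9% and 3.8% of the list, against 6.44% and 5.08% of all genes, and 8.44% and 3.11% of genes with a mean of at least 10. Both DBA pools lay above both 129 pools in 28 genes (35.4%) and below in 7 (8.86%), and the median difference was 0.106. Over all genes the shares were 23.0% and 21.4% and the median 0.004, and for genes with a mean of at least 10 they were 37.7% and 11.9% with a median of 0.092. For genes between the background reference and 10 the shares were 25.4% and 20.8%, with a median of 0.02. The median level of the list was 10.07, so its genes lie on both sides of 10. The list was not split by level, so its counts were not compared with genes of their own level. Hmox1, the haem oxygenase that NRF2 induces and its competitor BACH1 represses, read 12.06 in 129 females and 11.81 in 129 males, against 12.18 in DBA females and 12.28 in DBA males. The DBA pools lay above the 129 pools, with a difference of 0.30 (standard error 0.13, adjusted p = 0.466). Bach1 differed by 0.16 (standard error 0.11) and Mafg, a small MAF partner of NRF2 on DNA, by -0.04 (standard error 0.12). Nqo2, a relative of Nqo1, differed by -0.01 (standard error 0.11, and 0.02 with a common median), and Slc3a2, the heavy chain that carries SLC7A11 to the membrane, by 0.06 (standard error 0.12). Nqo2 and Slc3a2 were close to level between the strains, beside the differences of 1.44 in Nqo1 and 1.03 in Slc7a11.

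Glrx, the cytosolic glutaredoxin that removes glutathione from proteins, differed by 0.50 (standard error 0.16, adjusted p = 0.337) and Idh1, which makes NADPH from isocitrate, by 0.30 (standard error 0.11, adjusted p = 0.391). Both had the DBA pools above the 129 pools. The mitochondrial thioredoxin Txn2 and the peroxiredoxins Prdx3 and Prdx4 differed by 0.20, 0.17 and 0.16, with standard errors of 0.11, 0.19 and 0.22, and the peroxisomal and mitochondrial transferase Gstk1 by -0.14 (standard error 0.23). The phagocyte NADPH oxidase, which makes superoxide, was represented by 6 measured genes with a median difference of 0.028. Cybb, its membrane-bound catalytic subunit, differed by 0.06 (standard error 0.11) and Ncf1, a cytosolic subunit, by 0.01 (standard error 0.13, and -0.07 with quantile normalization).

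The list of other NRF2 target genes had 11 measured members, of which 4 (36.4%, against 6.44% of all genes) had an unadjusted p under 0.05, each with the higher level in DBA. They were Cbr3, Ptgr1, Blvrb and Osgin1, named here after their values were seen. Cbr3, a carbonyl reductase, read 8.12 in 129 females and 7.41 in 129 males, against 8.82 in DBA females and 9.22 in DBA males. It thus had the order of pools of Nqo1, with a difference of 1.25 (standard error 0.26, adjusted p = 0.196). Ptgr1, a reductase of prostaglandins and lipid aldehydes, differed by 0.69 (standard error 0.18, adjusted p = 0.270). The 3 genes with the lower level in DBA at an unadjusted p under 0.05 were Gpx3 (-0.60, standard error 0.17), Sod3 (-0.45, standard error 0.12), which encode secreted enzymes, and Gstm7 (-0.41, standard error 0.14), and they too were named after their values were seen. Gstm7 was below the background reference in 3 pools.

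The labelled cell type was checked against macrophage markers, and the content of other cells was described from their markers as sums of linear levels. Of 11 macrophage markers 10 were measured, with sums from 56820 to 58468 in the 129 and from 64106 to 68226 in the DBA pools, and none lay below the background reference in all pools. The sum of 9 measured B cell markers was 3853 to 4894 in the 129 pools, 14402 in the DBA female and 6805 in the DBA male pool, and all 9 had both DBA pools above both 129 pools. Sums of 10 fibroblast and mesothelial markers were 10522 to 11487 in the 129 and 7341 to 9353 in the DBA pools. Of these 10, 5 (Col1a1, Col1a2, Col3a1, Dcn and Pdgfra) had both DBA pools below both 129 pools, against 21.4% of all genes. Upk3b, higher in DBA by 0.61, had both above, against 23.0% of all genes, and in Lum, Msln, Wt1 and Krt19 the pools overlapped. Dcn, the brightest of the 10, differed by -0.42. T and NK cell markers (8 measured, 5 below the reference in all pools) gave 803 to 926 in the 129 and 786 to 881 in the DBA pools. In the same order, neutrophil markers (10 measured, 7 below the reference in all pools) gave 1304 to 1502 and 1580 to 1692. Of these 10, 7 had a negative and 3 a positive difference, and S100a8, the brightest, differed by 0.74. Eosinophil and mast cell markers (10 measured, 4 below the reference in all pools) gave 2205 to 2847 and 2743 to 2805. Erythroid markers (4 of 11 measured) gave 2545 to 2878 and 3501 to 3510. Tfrc, at 11.01 to 11.57 by far the brightest of the 4, was higher in DBA by 0.45. Slc4a1, Epor and Klf1 differed by -0.02, -0.13 and -0.07, so the erythroid sum follows Tfrc. Of all these markers 1 passed the adjusted test, the mast cell protease gene Mcpt4, which was higher in DBA by 1.80 (adjusted p = 0.0245, limma). By the same rule 0.216% of all genes were called higher. Mcpt4 read 5.82 in 129 females and 5.96 in 129 males, both under the background reference, against 7.49 and 7.90 in the DBA pools. Of the 10 eosinophil and mast cell markers 1 had both DBA pools above both 129 pools, 1 had both below, and 8 overlapped. Among the 9 B cell genes the DBA female pool was the highest in each, where it was the highest in 16.9% of all genes. The part of these cells in the differences of the antioxidant genes was not tested.

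Promoters of the members were searched for the core of the antioxidant response element on both strands, in windows from 250 bases before to 50 bases after the start of a gene (RefSeq, GRCm38.p6). A window was found for 28 of the 34 measured genes. The core TGACNNNGC was present in 9 of these (32.1%), and in 3781 of 27025 genes of the whole table (14%). The match upstream of Gsta3, the gene that passed the test, ran from 121 to 113 bases before the start. In Me1 the match spanned the start and also held TGACTCA, the motif of AP-1 factors, so that 1 stretch reads as both. Windows of Nqo1, Gstp1 and Slc7a11 held no match, which says only that these letters were not in those windows.

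The matches that lay before or at the start are shown with 10 bases on each side, on the strand of the gene, so that genes with larger and smaller strain differences can be compared. Capitals mark the match, which reads TGACNNNGC on the gene's own strand in Gsta3, Me1 and Nfe2l2 and its reverse complement, GCNNNGTCA, in the others.
Gsta3: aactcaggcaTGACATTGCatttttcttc
Me1: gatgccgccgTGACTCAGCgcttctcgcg
Nfe2l2: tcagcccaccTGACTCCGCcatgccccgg
Gclm: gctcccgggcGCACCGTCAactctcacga
Txnrd1: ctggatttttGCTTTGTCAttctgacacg
Sod1: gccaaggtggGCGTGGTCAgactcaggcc
Mgst1: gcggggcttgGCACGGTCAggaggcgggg

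These windows lie at chr1:21240454-21240482 for Gsta3, chr9:86695902-86695930 for Me1, chr2:75704885-75704913 for Nfe2l2, chr3:122245413-122245441 for Gclm, chr10:82859104-82859132 for Txnrd1, chr16:90220696-90220724 for Sod1 and chr6:138140461-138140489 for Mgst1. A match was thus present in genes with differences of 1.21 and 0.87 (Gsta3 and Me1) as well as in genes with differences of 0.06, -0.06 and -0.26 (Nfe2l2, Mgst1 and Sod1). A match is a description of the letters and not of binding, which was not measured here.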

How the data were processed

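RNA of 4 macrophage pools was measured. The log2 values are those the authors deposited, made with Affymetrix Expression Console per the submitters' processing notes. How probes were summarised and normalized is not given in the sources used here. Of 41345 probe sets, 23521 carried 1 gene symbol, 1820 several and 16004 none. RefSeq entries (GRCm38.p6) were found for 23328 of the first kind and served for current symbols and promoter sequences. For 1082 genes with several probe sets the brightest on average was used, without a filter on low values. Detection calls were not used here.

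Strains were contrasted with limma 3.58.1 (lmFit and eBayes, R 4.3.3) in a model of strain alone, which left 2 residual degrees of freedom and gained 3.73 from the prior. For sex, strain was kept in the model. Strain by sex interaction could not be fitted with an error term. Benjamini-Hochberg adjustment ran over the 22180 genes, and ratios are of mean linear levels. The members, lists, motif and tests were chosen with earlier results of these data known. The genes named are all measured members, 13 other pathway genes chosen by name, and any other gene of the pathway lists past the threshold (none was). Outside this rule, 7 pathway genes, the marker Mcpt4 and markers of the neutrophil, erythroid, and fibroblast and mesothelial lists were named after their values were seen. Other settings were a sex block, another prior (trended, robust), quantile scaling, medians set equal, dim genes left out, averaged probe sets, every probe set in the test, the sex contrast without strain, leaving out each pool, and cyclic loess, which was added after seeing the data. The limma fit of strain was tested on simulated data with known changes. P-values measure only the spread between pools, and precision is limited by the number of arrays.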

Additional observations from a re-analysis of the deposited data

Results flagged for a closer look

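In 15 genes the 129 female pool lay above the DBA female pool while the 129 male pool lay below the DBA male pool. With 1 pool per strain and sex the difference was not tested, and 45.9% of all genes had opposite signs in the sexes, counted in either direction. The excess of the male over the female strain difference, in log2 units, was 0.869 in Gss, 0.825 in Keap1, 0.789 in Srxn1, 0.781 in Txnrd1, 0.696 in Gclm and 0.671 in Mgst3. It was 0.526 in Gclc, 0.514 in Gstm2, 0.482 in Prdx2 and 0.405 in Gstm1. In Nfe2l2 (0.262), Gpx4 (0.183), Mgst1 (0.163), Gstt1 (0.047) and Gpx1 (0.037) it was small beside the values of the other genes. In Keap1, Gss and Mgst3 the female pools differed in favour of 129 (-0.271, -0.382 and -0.425), and the male pools by 0.554, 0.487 and 0.247 in favour of DBA.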

How the results depend on the processing

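The count of 1 member called higher in DBA was kept with the trended prior, quantile normalization, a common median, cyclic loess, dim genes left out and averaged probe sets. It was 0 with sex as a block and 0 with all probe sets tested together, which changes both the fitted prior and the adjustment, and 0 to 1 when each pool was left out. No member was called lower in any alternative. The count at an unadjusted p under 0.05 was 9 higher (6 to 10 over the other settings, 5 to 14 when each pool was left out) and 0 lower, with 1 lower under cyclic loess and 0 to 1 when each pool was left out. No member passed the adjusted test between the sexes in either fit, and both fits average the sex difference over the strains. Over all genes 83 were called, and 47 with the sex block, 16 without the 129 female, 6 without the 129 male, 135 without the DBA female and 186 without the DBA male pool, 129 with the trended prior and 0 with all probe sets tested together.

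Of 563 comparisons over 47 named genes, 518 kept their direction and side of the threshold, 5 lost the call (all Gsta3, whose difference when pools were left out was 1.10 to 1.32) and 40 in 20 genes turned their direction. None of these 20 genes had passed the test, and the cause was not tested. With quantile normalization and cyclic loess the differences became -0.045 and -0.022 in Gss, -0.077 and -0.073 in Gpx1, -0.041 and -0.033 in Gpx4, -0.049 and -0.045 in Gstm1, -0.003 and -0.004 in Gstt1, -0.019 and -0.019 in Nnt and -0.066 and -0.069 in Ncf1. With a common median they became 0.013 in Gstt2 and 0.021 in Nqo2. When each pool was left out they ranged from -0.037 to 0.155 in Nfe2l2, -0.096 to 0.379 in Keap1, -0.168 to 0.273 in Gss, -0.016 to 0.403 in Prdx2, -0.005 to 0.026 in Gpx1, -0.040 to 0.169 in Gstm1, -0.059 to 0.282 in Gstm2, -0.026 to 0.049 in Gstt1, -0.014 to 0.501 in Mgst2, -0.361 to 0.183 in Mgst3, -0.052 to 0.031 in Nqo2, -0.021 to 0.137 in Slc3a2, -0.062 to 0.407 in Prdx3, -0.134 to 0.453 in Prdx4, -0.430 to 0.145 in Gstk1, -0.126 to 0.037 in Mafg and -0.107 to 0.133 in Ncf1. The sex block pairs the pools of a sex across the strains, and Gsta3 had an adjusted p of 0.067 in it. Signal limits Mgst2, which lay below the background reference in 3 of 4 pools, and the 129 levels of Gsta3, which lay close to it.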
